A study of Mus musculus with 15 samples.

Results

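The 10 genes described here encode the enzymes of the pentose phosphate pathway and 3 other enzymes that make NADPH. Their rows were taken by gene symbol, and the set was chosen with earlier results of these data known. They are G6pdx, Pgls and Pgd of the oxidative branch, Rpia, Rpe, Tkt and Taldo1 of the non-oxidative branch, and Me1, Idh1 and Nnt outside the pathway. All 10 were found among the 42807 symbols of the count table, and all 10 were among the 14461 genes with enough counts to be tested.

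The libraries came from the mouse muscle line C2C12, whose myoblasts join to form myotubes, after 6 days of differentiation. The tested cultures received Jakyak-gamcho-tang (JGT) for 24 h, at 20, 100 or 500 µg/mL, and the controls received 0.1% DMSO as vehicle or no treatment. JGT is a hot-water extract of equal weights of Paeoniae radix (peony root) and Glycyrrhizae radix et rhizoma (licorice), a mixture of many compounds. Each of the 5 groups had 3 libraries, 15 in all, and the design asks how gene expression in myotubes changes with the dose of JGT. Every culture is of 1 cell line, and no label of these libraries names another agent. The highest dose was set by the authors as the one leaving 80% of myotubes viable. The stock of JGT held DMSO, so cultures at the lower doses would hold less DMSO than the vehicle cultures unless it was evened out, which the sources used here do not state.

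The oxidative branch turns glucose-6-phosphate into ribulose-5-phosphate and makes NADPH in the steps of G6pdx and Pgd. The non-oxidative branch interconverts sugar phosphates, gives ribose for nucleotides and returns carbon to glycolysis. NADPH supplies the electrons for glutathione and thioredoxin reduction and for the synthesis of fatty acids and sterols, and in muscle it also feeds NADPH oxidases. Several of these genes are known to be activated by NRF2, a factor that switches on antioxidant genes.

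At 500 µg/mL, transcripts of 5 of the 10 enzymes rose relative to vehicle and 0 fell. Pgd rose most, to 1.87 times its vehicle level (log2 fold change 0.90), and Me1 to 1.61 times (0.69). Idh1, Taldo1 and G6pdx rose by log2 fold changes of 0.38, 0.34 and 0.32. Of all genes tested in this comparison, 33.3% were called and 16.5% were called higher, where called means a Benjamini-Hochberg adjusted p below 0.05 in edgeR's quasi-likelihood test over all genes. The median log2 fold change was 0.22 over the 10 enzymes and 0.0062 over all genes. At 100 µg/mL, 3 of the 10 rose (Me1, Pgd and G6pdx) and 0 fell, against 4.31% of all genes called, 2.09% higher and 2.22% lower. At 20 µg/mL, 1 of the 10 rose (Me1), against 0.325% of all genes called, 0.173% higher and 0.152% lower. The call of Me1 at 20 µg/mL held under 4 of 12 alternatives, and was lost without any 1 of the 6 libraries, with the replicate block and with non-treated libraries as control. The 3 comparisons share the same vehicle libraries, so they are not independent of each other. In bulk RNA, a change in the share of cells of a type and a change in RNA per cell cannot be told apart.

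Library totals lay between 26012844 and 36854199 counts. Rpia was the most thinly counted of the 10 enzymes, with 262 to 398 counts a library, and Pgd the most deeply, with 3484 to 8656. Levels are given as CPM, the usual depth-scaled count, computed with TMM-adjusted library sizes. Whether the libraries of a group stem from different culture wells is not stated, so the p-values rest on a spread that may be only technical. JGT 500 µg/mL replicate 2 stood apart from its group, with a first principal component score of 17.5, against 37.2 and 39.4 for the other replicates, and a second component score of -25.7, against 4.65 and 8.93. Without it, 6 of the 10 enzymes were called higher than vehicle, and the share of all genes called was 43.3% (20.9% higher and 22.4% lower), against 33.3% with it. Control and JGT libraries carry sample codes of different series, although all titles carry the same batch name, so a difference between JGT and a control cannot be told apart from a difference between code series. The comparisons between doses do not cross the code series.

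All 10 myotube markers were present in every group, with a summed level of 17146 to 19648 CPM over the 15 libraries. Of these 10, 3 were called higher and 3 lower than vehicle at 500 µg/mL, against 16.5% and 16.8% of all genes. At 500 µg/mL, 9 of 10 markers of cycling or undifferentiated myoblasts fell, against 16.8% of all genes called lower. Their summed level was 209 to 229 CPM, against 430 to 437 CPM in vehicle and 502 to 510 CPM in non-treated libraries. It was 361 to 373 CPM at 100 µg/mL and 386 to 412 CPM at 20 µg/mL. Vehicle itself had 4 of these 10 called lower than non-treated libraries, against 0.754% of all genes. Of 9 adipocyte markers, 3 could be tested and all 3 rose at 500 µg/mL (Lpl, Cebpa and Pparg), against 16.5% of all genes called higher. The summed level over the list was 104 to 115 CPM, against 48.3 to 49.9 CPM in vehicle. Cidec and Cfd were at 0 in every library, and Adipoq, Plin1 and Retn had 2, 1 and 1 counts over all 15 libraries. Summed markers of leukocytes did not exceed 5.30 CPM, and those of endothelial cells did not exceed 1.97 CPM, in any library. The part of these markers in the changes of the 10 enzymes was not tested.

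Upstream windows of the 3 genes that rose at both 100 and 500 µg/mL are shown because each holds a match to a core motif of a stress-responsive factor. Windows of 250 bases before to 50 bases after a transcription start were taken from the RefSeq table of GRCm38.p6, which holds 12 windows for 9 of the 10 genes. The motifs searched, on both strands, were TGACNNNGC, the core of the antioxidant response element bound by NRF2, TNGCGTG, the core of the xenobiotic response element bound by the aryl hydrocarbon receptor, and CACGTG, an E-box. Capitals mark the match, and positions count from the start base as 0, with negative positions before it. In G6pdx, at chrX:74428881-74429130 on the minus strand, the antioxidant core lies on the opposite strand at -57 to -49, so that the line shows its reverse complement. In Pgd, at chr4:149166706-149166955 on the minus strand, the xenobiotic core lies at -42 to -36. In Me1, at chr9:86695912-86696164 on the minus strand, the antioxidant core spans the start, from -6 to 2.
G6pdx: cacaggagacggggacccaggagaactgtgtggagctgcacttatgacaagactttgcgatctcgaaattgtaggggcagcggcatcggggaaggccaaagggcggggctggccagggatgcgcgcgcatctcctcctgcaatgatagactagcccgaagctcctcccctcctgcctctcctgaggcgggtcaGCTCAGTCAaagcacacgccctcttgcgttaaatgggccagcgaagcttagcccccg
Pgd: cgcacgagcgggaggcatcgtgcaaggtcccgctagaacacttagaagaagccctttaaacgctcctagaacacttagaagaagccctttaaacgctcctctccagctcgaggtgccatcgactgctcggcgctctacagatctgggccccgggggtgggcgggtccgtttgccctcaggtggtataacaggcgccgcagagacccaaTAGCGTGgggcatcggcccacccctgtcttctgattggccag
Me1: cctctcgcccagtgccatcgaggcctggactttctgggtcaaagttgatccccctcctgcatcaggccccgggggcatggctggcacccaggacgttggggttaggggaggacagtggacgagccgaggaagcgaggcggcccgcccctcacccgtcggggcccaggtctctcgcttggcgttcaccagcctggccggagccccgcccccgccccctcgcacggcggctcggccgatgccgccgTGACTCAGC
Pgd also has a second listed start, where an antioxidant core lies at 3 to 11, after the start. With it, the antioxidant core was found in 3 of the 9 genes, against 14.0% of the 27025 genes in the table (12.4% of its 32851 windows). The xenobiotic core was found in 1 of the 9 genes, against 5.84% of all genes, and the E-box in 0, against 8.09%. No 2 matches overlapped. The windows of Taldo1 and Idh1, which were called over vehicle at 500 µg/mL only, and the second window of Me1 held no match. For Taldo1 the start used, base 141392160, lies before the annotated gene start at 141392199. The bases just after the start used were not found in annotated Taldo1 transcripts, unlike those of the other windows. The motif matches describe letters in the windows and do not show binding.

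In the oxidative branch, the dehydrogenases G6pdx and Pgd rose and the lactonase Pgls did not pass the test. G6pdx encodes glucose-6-phosphate dehydrogenase, the entry enzyme of the pathway, and lies at chrX:74409483-74429194 (minus strand, GRCm38). It had 42.0, 39.4 and 40.7 CPM in non-treated libraries, 38.7, 38.6 and 40.6 CPM in vehicle, 42.5, 40.7 and 39.6 CPM at 20 µg/mL, 47.6, 45.7 and 46.3 CPM at 100 µg/mL, and 50.4, 50.1 and 46.5 CPM at 500 µg/mL. All 6 libraries of the higher doses lay above all 9 others, and the higher doses overlapped each other. Relative to vehicle, the log2 fold change of G6pdx was 0.059 ± 0.045 at 20 µg/mL (SE, adjusted p = 0.674), 0.24 ± 0.044 at 100 µg/mL (adjusted p = 0.00212) and 0.32 ± 0.044 at 500 µg/mL (adjusted p = 1.26e-05). G6pdx shares 281 exon bases with Ikbkg on the other strand, and since the strand setting of the counting is not given, reads there may have been split between them.

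Pgls encodes 6-phosphogluconolactonase, which opens the lactone made by G6pdx, at chr8:71592176-71601092 (plus strand). Its level was 55.8, 43.5 and 56.2 CPM at 500 µg/mL, against 49.8, 52.1 and 49.1 CPM in vehicle, and between 43.4 and 55.2 CPM in the other libraries. The groups overlapped throughout, and replicate 2 at 500 µg/mL was well below the other replicates of its group. The log2 fold change at 500 µg/mL was 0.040 ± 0.11 (adjusted p = 0.814). This SE is larger than the 0.044 of G6pdx, so changes of Pgls were less finely resolved. Part of its exons, 677 bases, is shared with Fam129c on the same strand.

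Pgd encodes 6-phosphogluconate dehydrogenase, which makes the second NADPH of the branch and releases carbon dioxide, at chr4:149149991-149166771 (minus strand). It had 138, 136 and 140.5 CPM in non-treated libraries, 131, 134 and 132 CPM in vehicle, 140.0, 149.6 and 148 CPM at 20 µg/mL, 156, 163 and 159 CPM at 100 µg/mL, and 237, 254 and 251 CPM at 500 µg/mL. The 3 libraries at 500 µg/mL stood clear of all others, and each JGT dose lay above vehicle in every library. Only the lowest library at 20 µg/mL fell within the range of non-treated libraries. The log2 fold change over vehicle was 0.14 ± 0.037 at 20 µg/mL (adjusted p = 0.119), 0.27 ± 0.037 at 100 µg/mL (adjusted p = 0.000128) and 0.90 ± 0.037 at 500 µg/mL (adjusted p = 1.85e-13). At 500 µg/mL, 1.45% of the genes tested had a higher log2 fold change than Pgd. The value of Pgd at 20 µg/mL was called in DESeq2 (adjusted p = 0.0474) and in a fit of the 2 groups alone (adjusted p = 0.0200), and in none of the 10 other alternatives. Over non-treated libraries it was 0.079 (adjusted p = 0.296).

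**Figure D1:**
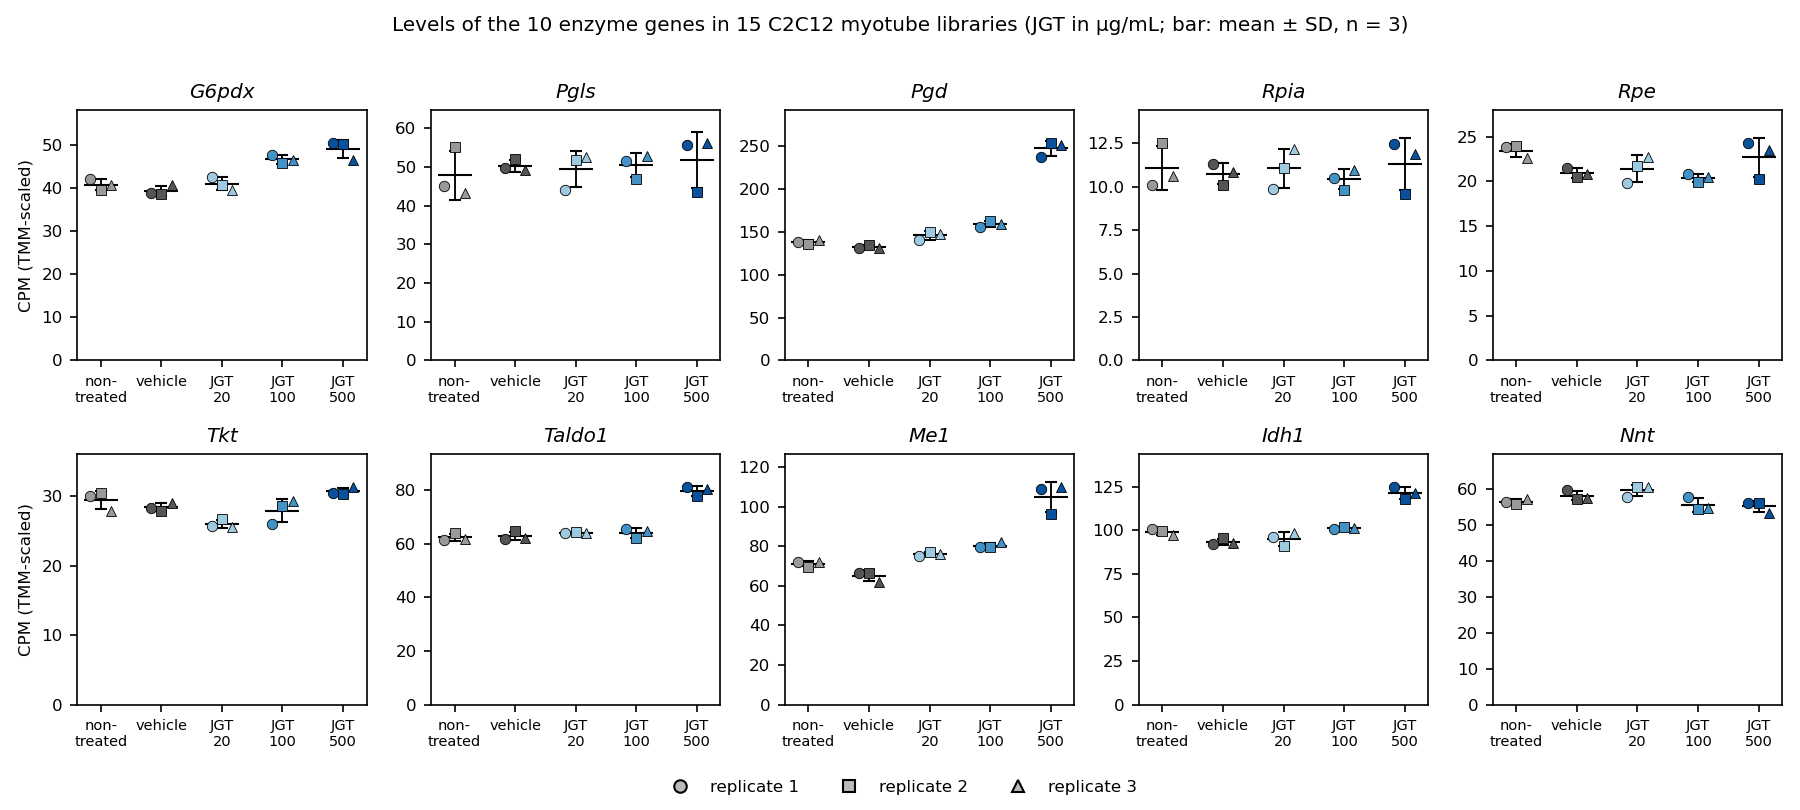
Level of each of the 10 enzyme genes (CPM after TMM scaling, linear axis from 0) in the 15 libraries, from non-treated and vehicle to JGT 20, 100 and 500 µg/mL. Points are libraries, with replicate numbers as symbols, and bars are mean ± SD of 3 libraries. Pgd averaged 247 CPM at 500 µg/mL and 132 CPM in vehicle, and replicate 2 at 500 µg/mL is the lowest point of its group for Pgls, Rpia, Rpe, Tkt, Taldo1, Me1 and Idh1.

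Of the 4 enzymes of the non-oxidative branch, Taldo1 rose at 500 µg/mL and Rpia, Rpe and Tkt did not pass the test. Taldo1 encodes transaldolase, which moves a 3-carbon unit between sugar phosphates, at chr7:141392199-141402968 (plus strand). It had 61.5, 63.9 and 61.7 CPM in non-treated libraries, 61.5, 64.5 and 62.2 CPM in vehicle, 63.9, 64.2 and 63.8 CPM at 20 µg/mL, 65.5, 62.0 and 64.7 CPM at 100 µg/mL, and 81.1, 77.6 and 80.3 CPM at 500 µg/mL. The 12 libraries below 500 µg/mL lay together between 61.5 and 65.5 CPM, and all 3 at 500 µg/mL were above them. The log2 fold change over vehicle was 0.028 ± 0.038 at 20 µg/mL (adjusted p = 0.829), 0.030 ± 0.038 at 100 µg/mL (adjusted p = 0.787) and 0.34 ± 0.038 at 500 µg/mL (adjusted p = 5.26e-07).

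Tkt encodes transketolase, the thiamine-dependent partner of transaldolase, at chr14:30548359-30574720 (plus strand). Its level was 30.5, 30.3 and 31.3 CPM at 500 µg/mL, against 28.4, 27.9 and 29.0 CPM in vehicle. At 20 µg/mL it was 25.7, 26.7 and 25.6 CPM, below every vehicle library. The libraries at 500 µg/mL were above every vehicle library, but neither dose passed the test. The log2 fold change over vehicle was 0.11 ± 0.051 at 500 µg/mL (adjusted p = 0.100) and -0.13 ± 0.051 at 20 µg/mL (adjusted p = 0.369). Non-treated libraries had 30.0, 30.4 and 27.9 CPM and overlapped those at 500 µg/mL. Over them, the log2 fold change was 0.060 at 500 µg/mL (adjusted p = 0.403) and -0.18 at 20 µg/mL (adjusted p = 0.0601). At 100 µg/mL Tkt had 26.0, 28.6 and 29.3 CPM. Between the doses themselves, Tkt was higher at 500 than at 20 µg/mL, by a log2 fold change of 0.24 ± 0.051 (adjusted p = 0.00142).

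Rpe and Rpia act on ribulose-5-phosphate, Rpe as the epimerase that gives xylulose-5-phosphate and Rpia as the isomerase that gives ribose-5-phosphate. Rpe lies at chr1:66700831-66719805 (plus strand) and had 24.3, 20.2 and 23.5 CPM at 500 µg/mL, against 21.5, 20.4 and 20.9 CPM in vehicle. Rpia lies at chr6:70765720-70792232 (minus strand) and had 12.4, 9.58 and 11.9 CPM at 500 µg/mL, against 11.3, 10.1 and 10.9 CPM in vehicle. In both genes replicate 2 at 500 µg/mL lay below all 3 vehicle libraries and the other replicates lay above them. The log2 fold change at 500 µg/mL was 0.11 ± 0.065 for Rpe (adjusted p = 0.196) and 0.065 ± 0.10 for Rpia (adjusted p = 0.661). Without replicate 2, Rpe passed the test, with a log2 fold change of 0.18 (adjusted p = 0.0139), and Rpia did not (0.17, adjusted p = 0.150). Over non-treated libraries, where Rpe had 23.8, 23.9 and 22.6 CPM, its direction turned, with -0.050 at 500 µg/mL (adjusted p = 0.595). Rpe shares 558 exon bases with Kansl1l on the other strand, and all 15 of its deposited counts were estimates that were not whole. Rpia holds repeats of up to 395 bases that match transcripts of other genes.

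Me1 encodes cytosolic malic enzyme, which turns malate into pyruvate and makes NADPH, at chr9:86581371-86695953 (minus strand). It had 72.2, 69.8 and 71.8 CPM in non-treated libraries, 66.7, 66.6 and 61.9 CPM in vehicle, 75.0, 77.1 and 76.3 CPM at 20 µg/mL, 79.4, 79.8 and 82.0 CPM at 100 µg/mL, and 109, 96.2 and 110.0 CPM at 500 µg/mL. The 5 groups did not overlap, and non-treated libraries lay between vehicle and 20 µg/mL. The log2 fold change over vehicle was 0.23 ± 0.047 at 20 µg/mL (adjusted p = 0.0405), 0.31 ± 0.047 at 100 µg/mL (adjusted p = 0.000521) and 0.69 ± 0.047 at 500 µg/mL (adjusted p = 4.36e-10). The call at 20 µg/mL was lost when any 1 of the 6 libraries was left out (adjusted p of 0.0910 to 0.249), with the replicate number as a block (adjusted p = 0.0579), and with non-treated libraries in place of vehicle, where the log2 fold change was 0.095 (adjusted p = 0.336). The changes at 100 and 500 µg/mL over non-treated libraries were 0.17 (adjusted p = 0.0216) and 0.56 (adjusted p = 8.96e-09). Of the 15 counts of Me1, 11 were not whole, so a part of its reads was assigned by estimate. A processed pseudogene, Gm7049, matches 1716 bases of Me1 transcripts at 98.4% identity, but the count table has no row under that symbol. Gm7329, a processed pseudogene that has a row, matches 210 bases at 99.0% identity and averaged 4.06 counts. Which genes shared reads with Me1 was not tested.

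Idh1 encodes the NADP-dependent isocitrate dehydrogenase of the cytosol and peroxisomes, at chr1:65158616-65186500 (minus strand). It had 101, 99.7 and 97.3 CPM in non-treated libraries, 92.4, 95.5 and 92.8 CPM in vehicle, 96.2, 90.9 and 98.8 CPM at 20 µg/mL, 101, 102 and 101 CPM at 100 µg/mL, and 125, 118 and 122 CPM at 500 µg/mL. The libraries at 500 µg/mL were above all others, and those at 100 µg/mL were above vehicle and barely above the highest non-treated library. The log2 fold change over vehicle was 0.027 ± 0.038 at 20 µg/mL (adjusted p = 0.837), 0.12 ± 0.037 at 100 µg/mL (adjusted p = 0.0856) and 0.38 ± 0.037 at 500 µg/mL (adjusted p = 1.22e-07). In a fit of the 2 groups alone, the value at 100 µg/mL was called (adjusted p = 0.0189), the only 1 of 12 alternatives to do so. Over non-treated libraries it was 0.033 (adjusted p = 0.676).

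Nnt encodes the transhydrogenase of the inner mitochondrial membrane, which uses the proton gradient to make NADPH from NADH, at chr13:119335448-119408997 (minus strand). It had 56.2, 56.1 and 53.4 CPM at 500 µg/mL and 57.9, 54.4 and 54.8 CPM at 100 µg/mL, against 59.7, 57.4 and 57.7 CPM in vehicle. The libraries at 500 µg/mL lay below every vehicle library, but the log2 fold change of -0.077 ± 0.040 did not pass the test (adjusted p = 0.147). Non-treated libraries had 56.4, 56.0 and 57.3 CPM, also below every vehicle library, and overlapped those at 500 µg/mL. Over non-treated libraries the log2 fold change at 500 µg/mL was -0.035 (adjusted p = 0.553). At 20 µg/mL Nnt had 58.0, 60.6 and 60.6 CPM. Between doses, Nnt was lower at 500 than at 20 µg/mL by a log2 fold change of -0.11 ± 0.040 (adjusted p = 0.0462). That call was lost in DESeq2 (adjusted p = 0.0665), with library totals in place of TMM (0.0851), with no low-count filter (0.0931), with the replicate block (0.0596), in a fit of the 2 groups alone (0.145), and without replicate 2 or 3 at 20 µg/mL or replicate 1 or 3 at 500 µg/mL (0.0511 to 0.154).

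**Figure D2:**
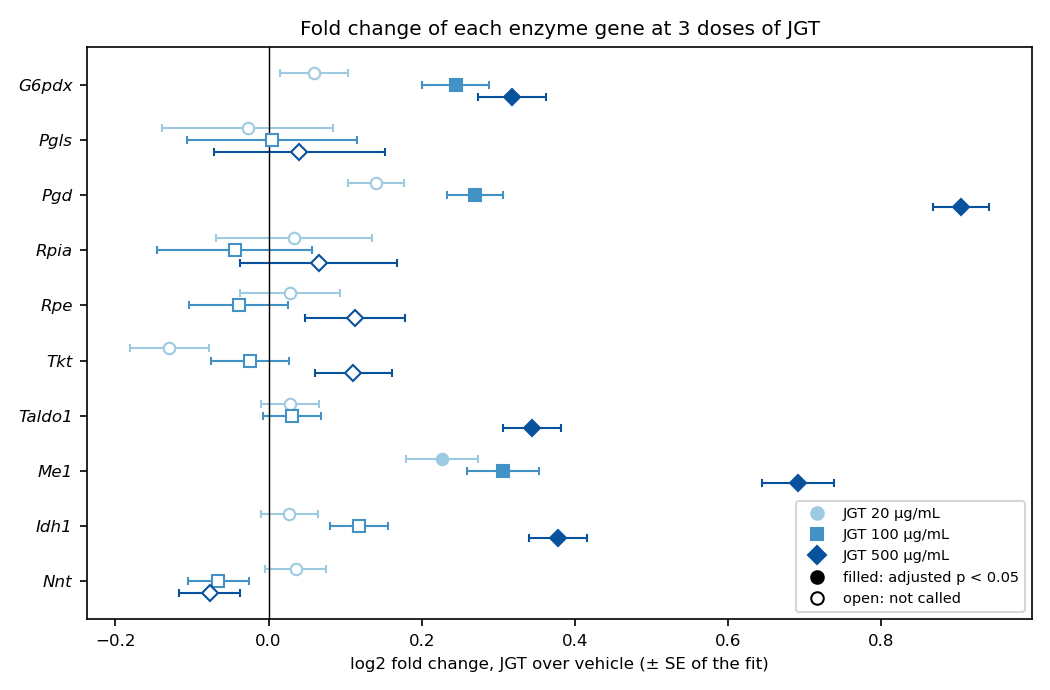
Log2 fold change of each enzyme gene over vehicle at JGT 20, 100 and 500 µg/mL, with the SE of the edgeR fit as bars. Filled symbols have an adjusted p below 0.05 over all genes tested. At 500 µg/mL the values run from -0.077 for Nnt to 0.90 for Pgd, and the 3 doses share the same vehicle libraries.

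Most of the rise in Pgd, Taldo1, Idh1 and Me1 lay between 100 and 500 µg/mL, while G6pdx gave most of its rise below that step. At 500 against 100 µg/mL, 4 of the 10 enzymes rose and 0 fell, against 19.7% of all genes called and 9.05% called higher. Over all genes this split was 1309 higher and 1544 lower, and with library totals in place of TMM it was 1747 higher and 1238 lower. The log2 fold changes were 0.63 ± 0.036 for Pgd (adjusted p = 1.10e-10), 0.39 ± 0.046 for Me1 (adjusted p = 3.75e-06), 0.31 ± 0.037 for Taldo1 (adjusted p = 3.33e-06) and 0.26 ± 0.037 for Idh1 (adjusted p = 3.44e-05). G6pdx gave 0.074 ± 0.043 over the same step and did not pass the test (adjusted p = 0.250). With library totals, Tkt joined the called genes (0.16, adjusted p = 0.0288, against 0.13 and 0.0644 with TMM), and without replicate 2 at 500 µg/mL Rpe did (0.23, adjusted p = 0.00392).

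At 100 against 20 µg/mL, edgeR called 0 of the 10 enzymes, against 0.429% of all genes, and 5 had an unadjusted p below 0.05, against 7.53% of all genes. DESeq2 also called 0, and a fit of the 2 groups alone called G6pdx (adjusted p = 0.0213). The largest value was that of G6pdx, 0.18 ± 0.044 (adjusted p = 0.0751), with 47.6, 45.7 and 46.3 CPM at 100 µg/mL, against 42.5, 40.7 and 39.6 CPM at 20 µg/mL. Over all genes, 43 were higher and 19 lower in this comparison, and with library totals 38 were higher and 30 lower. At 500 against 20 µg/mL, 6 of the 10 rose (Pgd, Me1, Idh1, Taldo1, G6pdx and Tkt) and 1 fell (Nnt), against 23.3% of all genes called, 11.1% higher and 12.2% lower. Of these 6, Pgd changed by 0.76 ± 0.036 (adjusted p = 3.59e-12) and G6pdx by 0.26 ± 0.044 (adjusted p = 0.000166).

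None of the 10 enzymes passed the test between the controls. In vehicle against non-treated libraries, edgeR and DESeq2 each called 0 of the 10, against 1.31% of all genes called by edgeR (0.553% higher and 0.754% lower), and 3 had an unadjusted p below 0.05, against 16.7% of all genes. These were Rpe (log2 fold change -0.16 ± 0.066, adjusted p = 0.221), Me1 (-0.13 ± 0.048, adjusted p = 0.174) and Idh1 (-0.086 ± 0.038, adjusted p = 0.258), all lower in vehicle. Rpe had 21.5, 20.4 and 20.9 CPM in vehicle, against 23.8, 23.9 and 22.6 CPM in non-treated libraries. A fit of the 2 groups alone called Me1 (adjusted p = 0.0421). With non-treated libraries as the control, the same 5 enzymes were called at 500 µg/mL and the same 3 at 100 µg/mL.

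Scaled to exon length, the 10 transcripts span more than an order of magnitude, and the place of Pgd in that order shifted with JGT. In CPM per kilobase of exon, the levels at 500 µg/mL were highest for Idh1 (43.9 ± 1.25, SD, n = 3), Pgd (38.4 ± 1.39) and Taldo1 (36.7 ± 0.852), followed by Me1 (27.3 ± 2.00), G6pdx (15.9 ± 0.694) and Pgls (13.7 ± 1.92). In vehicle the order was Idh1 (33.8 ± 0.597), Taldo1 (28.9 ± 0.725), Pgd (20.5 ± 0.299), Me1 (16.9 ± 0.704), Pgls (13.4 ± 0.415) and G6pdx (12.8 ± 0.360). Pgd thus stood above Taldo1 at 500 µg/mL and below it in vehicle, but its range at 500 µg/mL, 36.8 to 39.3, overlapped that of Taldo1, 35.7 to 37.4. The ranges of G6pdx and Pgls did not overlap at 500 µg/mL (15.1 to 16.4 and 11.5 to 14.9) and overlapped in vehicle (12.5 to 13.2 and 13.0 to 13.8). Nnt (7.85 ± 0.223), Rpe (7.29 ± 0.691), Tkt (4.18 ± 0.0733) and Rpia (2.11 ± 0.282) were lowest at 500 µg/mL and stood in that order in every group, with overlapping ranges of Nnt and Rpe at 500 µg/mL. The exon length is the union over annotated transcripts, so the transcript forms in these cells may be shorter. The order between genes rests on these lengths, 6447 bases for Pgd, 2771 for Idh1 and 2171 for Taldo1. Without length scaling, Pgd was already above both in vehicle, at a mean of 132 CPM, against 93.6 CPM for Idh1 and 62.7 CPM for Taldo1.

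**Figure D3:**
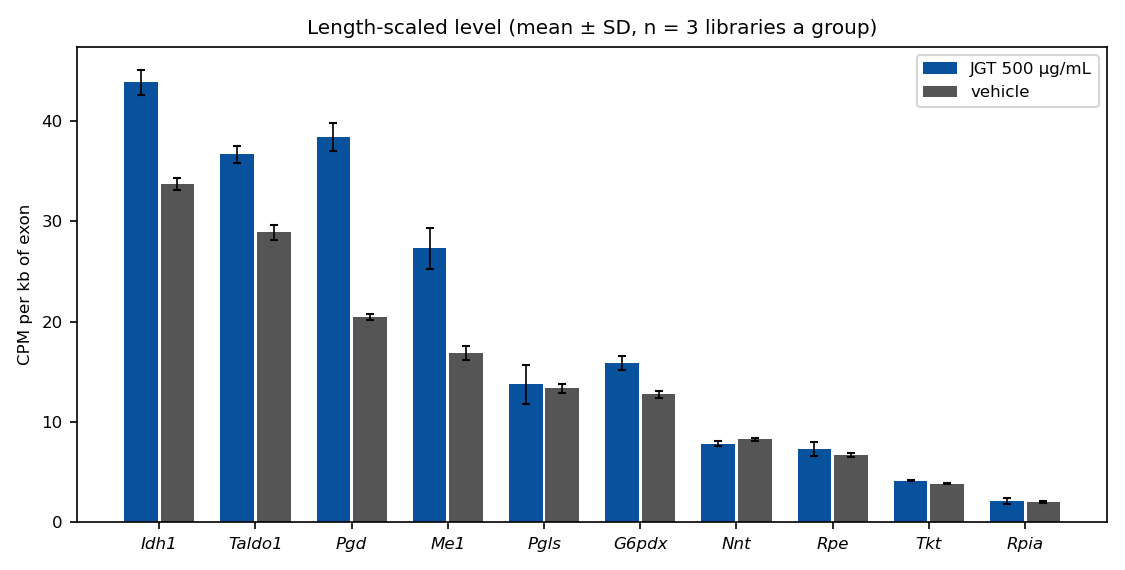
Level per kilobase of exon (CPM per kb, linear axis from 0) of each enzyme gene in JGT 500 µg/mL and vehicle libraries, as mean ± SD of 3 libraries, in the order of the vehicle means. Pgd reached 38.4 at 500 µg/mL and 20.5 in vehicle, and Rpia stayed lowest at 2.11 and 2.01.

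Ratios within a library do not depend on its scaling. Pgd is taken as the numerator because it had the largest fold change of the 10, so the direction of its ratios to the others follows from that rank, and no test is given. The log2 ratio of Pgd to Me1 was 1.24 ± 0.144 at 500 µg/mL and 1.02 ± 0.0590 in vehicle (SD, n = 3 each), a difference of 0.21, the smallest of the 9 ratios. The log2 ratio of Pgd to G6pdx was 2.34 ± 0.0999 at 500 µg/mL and 1.75 ± 0.0504 in vehicle, a difference of 0.59. The difference was largest against Nnt, at 0.98.

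For the 5 enzymes called at 500 µg/mL, the genes with the most similar pattern were found over the differences of the mean log2 CPM of the 4 other groups from vehicle, among tested genes with a mean of at least 10 CPM. Likeness is the root mean square difference, in log2 units, with 0 for an identical pattern. Pgd was nearest to Mmd (0.049), Hgf (0.061) and Limch1 (0.070), and Mmd stood 1.00 above vehicle at 500 µg/mL on this log2 scale. Me1 was nearest to Bnip3 (0.034), Rnf128 (0.045) and the glutathione transferase gene Gstp1 (0.064). G6pdx was nearest to Galnt6 (0.022), Nmnat2 (0.026) and Shroom3 (0.028), Taldo1 to Cyb5a (0.012), Romo1 (0.016) and Klhl21 (0.019), and Idh1 to Ctsl (0.0075), Ralgapa2 (0.022) and Gypc (0.022). None of the 10 enzymes was among the nearest 3 of another, since members were left out of the search.

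Lists of related genes give the setting of these 10. Of 13 tested genes for other NADPH sources, 3 rose and 1 fell at 500 µg/mL, and their median log2 fold change was 0.020, against 0.0062 over all genes. For this and the lists that follow, the shares over all genes at 500 µg/mL were 33.3% called, 16.5% higher and 16.8% lower, so 4 of 13 is near the background. Without replicate 2 at 500 µg/mL, 2 of these 13 rose and 3 fell, against 43.3% of all genes called. Nadk2, the mitochondrial kinase that makes NADP, rose (0.43, adjusted p = 6.32e-05), as did H6pd, the dehydrogenase of the endoplasmic reticulum (0.18, adjusted p = 0.0148), and Glud1, glutamate dehydrogenase (0.10, adjusted p = 0.0308). Relative to vehicle, Aldh1l2, a mitochondrial folate enzyme that makes NADPH, fell at 500 µg/mL (-0.31, adjusted p = 3.69e-05). It rose over vehicle at 20 (0.26, adjusted p = 0.0133) and 100 µg/mL (0.29, adjusted p = 0.000688). It had 50.3, 52.5 and 55.0 CPM at 500 µg/mL and 77.3, 79.5 and 81.8 CPM at 100 µg/mL, against 65.0, 65.6 and 64.6 CPM in vehicle. Non-treated libraries had 75.4, 70.6 and 80.2 CPM and those at 20 µg/mL 78.4, 75.3 and 79.4 CPM. Levels at 20 and 100 µg/mL thus overlapped the non-treated ones, and those at 500 µg/mL lay below both controls. Idh2, the mitochondrial counterpart of Idh1, gave 0.035 (adjusted p = 0.645) and was singled out after its value was seen. The second glucose-6-phosphate dehydrogenase gene, G6pd2, was at 0 counts in all libraries.

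Of 11 other tested genes of the pentose phosphate pathway and ribose use, 2 rose and 1 fell at 500 µg/mL, with a median of 0.088, a count near the 33.3% of all genes called. Pgm2, a phosphoglucomutase gene, rose (0.34, adjusted p = 3.69e-05), and so did Prpsap1, a partner protein of phosphoribosyl pyrophosphate synthetase (0.14, adjusted p = 0.0108). The count table uses older symbols for some genes. Which phosphoglucomutase Pgm2 names there, and so whether it acts on pentose phosphates, was not checked. Prps2, one of the synthetases, fell (-0.23, adjusted p = 0.0130). The transketolase-like genes were near absent, Tktl2 with 0 counts and Tktl1 with 8 counts over all libraries. Among 17 genes of upper glycolysis and glucose entry, 5 rose and 2 fell, against 33.3% of all genes called, with a median of 0.0065. The risers were Slc2a1, the glucose transporter GLUT1 (0.40), Pfkl (0.41), Hk2 (0.30), Hk1 (0.19) and Gpi1 (0.14), and the transporter genes Slc2a3 (-0.53) and Slc2a4 (-0.62) fell. Gpi1, Slc2a3 and Slc2a4 were named after their values were seen.

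Of 17 tested genes listed as reductases that use NADPH, 9 rose and 3 fell at 500 µg/mL. Of all genes, 16.5% were called higher and 16.8% lower, and the median of the list was 0.25. The list also holds the oxidase gene Nox4 and Cyb5r3, a reductase gene named here only because its main cofactor is NADH. Nqo1, the quinone reductase, had 25.3, 31.3 and 25.3 CPM at 500 µg/mL, against 3.21, 4.67 and 4.25 CPM in vehicle, a log2 fold change of 2.76 ± 0.11 (adjusted p = 3.48e-13). Txnrd1, cytosolic thioredoxin reductase, rose by 0.49, Blvrb, biliverdin reductase B, by 0.84, and Akr1b3, aldose reductase, by 0.32. Among those that fell were the hydrogen peroxide source Nox4 (-0.33) and Akr1b8 (-0.26), both named after their values were seen. Glutathione reductase, Gsr, also named after its value was seen, gave 0.20 ± 0.11 and did not pass the test (adjusted p = 0.161). At 100 µg/mL, 1 of the 17 rose, Txnrd1 (0.14, adjusted p = 0.0178), against 2.09% of all genes.

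Of 13 tested genes of reductive lipid synthesis, a main use of NADPH in many tissues, 5 fell and none rose at 500 µg/mL, against 33.3% of all genes called and 16.8% lower, with a median of -0.014. Among those that fell were Elovl6 (-0.35), Fasn, fatty acid synthase (-0.24), Hmgcs1 (-0.13) and Acaca, acetyl-CoA carboxylase (-0.12). Already at 20 µg/mL 2 of the 13 were called lower than vehicle, against 0.152% of all genes, and at 100 µg/mL 3, against 2.22%. At 500 against 100 µg/mL 1 was called lower, against 10.7% of all genes. None was called higher in these comparisons. Vehicle against non-treated libraries also had 3 called lower (Hmgcs1, Elovl6 and Sqle), against 0.754% of all genes. Of 14 genes of citrate and malate shuttling, 1 rose and 5 fell at 500 µg/mL, against 16.5% of all genes higher and 16.8% lower. Their median was -0.063. Pcx, pyruvate carboxylase, rose (0.39), and Slc25a10, the dicarboxylate carrier (-0.39), Idh3a (-0.21), Got1 (-0.17), Got2 (-0.15) and Mdh2 (-0.085) fell. Without replicate 2 at 500 µg/mL, 8 of these 14 fell and 1 rose, against 22.4% of all genes called lower and 20.9% higher.

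Of 15 tested genes for NRF2, its regulators and its reference targets, 10 rose and 0 fell at 500 µg/mL, against 16.5% of all genes called higher, with a median of 0.25. At 100 µg/mL 5 rose (Gstm1, Gsta4, Gclm, Hmox1 and Srxn1), against 2.09% of all genes. Gsta4, a glutathione transferase, had 67.2, 58.2 and 67.1 CPM at 500 µg/mL, against 7.78, 6.83 and 6.20 CPM in vehicle, a log2 fold change of 3.21 ± 0.080 (adjusted p = 8.46e-17). Gstm1 rose by 1.46, Srxn1, sulfiredoxin, by 0.65, and Gclm, the modifier subunit of the first enzyme of glutathione synthesis, by 0.50. Gclc, the catalytic subunit, gave -0.076 (adjusted p = 0.243) and was named after its value was seen. Of 11 other regulators known to act on these enzymes, 1 rose and 4 fell, against 33.3% of all genes called, with a median of -0.074. Ahr, the aryl hydrocarbon receptor, fell by 0.40 on the log2 scale, Trp53 by 0.27, Mlxip by 0.17 and Srebf2 by 0.10, and Sirt5 rose by 0.35. Without replicate 2 at 500 µg/mL, 12 of the NRF2 list rose, and of the other regulators 0 rose and 5 fell, against 20.9% of all genes called higher and 22.4% lower.

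**Figure D4:**
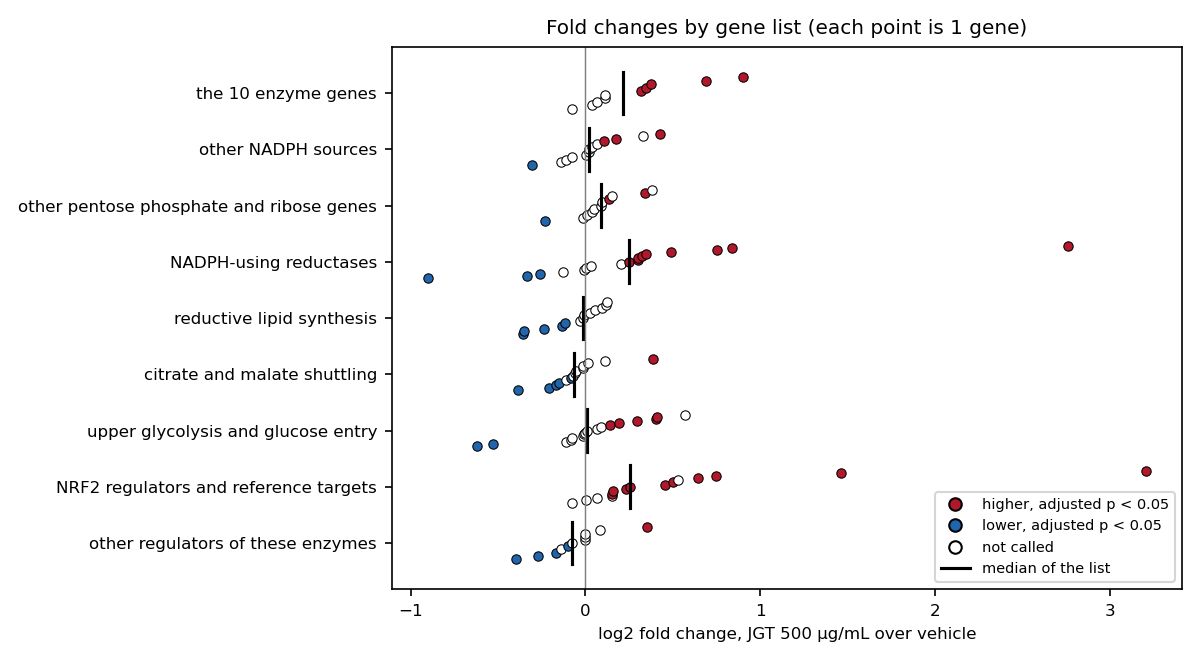
Log2 fold change of each tested gene, JGT 500 µg/mL over vehicle, for the 10 enzymes and 8 lists of related genes, with 1 point for each gene and a vertical line at the list's median. Red points are called higher, blue points lower and open points were not called. The medians of the 10 enzymes (0.22), the NADPH-using reductases (0.25) and the NRF2 list (0.25) lie furthest right, and that of other regulators (-0.074) furthest left.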

How the data were processed

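RNA of C2C12 myotubes was sequenced from directional mRNA libraries, per the labels' protocols. The authors deposited raw expected counts, with a row for each gene symbol and a column for each library. The submitters' processing notes name RSEM 1.3.3, STAR 2.7.3a, Trim Galore 0.6.5 and FastQC 0.11.9 and the build GRCm38 (mm10). What each tool did, the annotation and the strand setting were not given in the sources used here.

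Expected counts were rounded to whole numbers (9.34% were not whole, within 0.005) and tested in R 4.3.3. The filterByExpr function of edgeR 4.0.16 kept 14461 genes, TMM factors lay between 0.988 and 1.02, and all 15 libraries entered 1 robust quasi-likelihood fit with a mean per group and 10 residual degrees of freedom (common dispersion 0.00282, a biological coefficient of variation of 5.31%). Tests were two-sided, with Benjamini-Hochberg adjustment over all genes. Alternatives were DESeq2 1.42.0, library totals, no low-count filter, only the 2 groups compared, the replicate number as a block, non-treated libraries as control, and leaving out each library. Recounting the lists under them was added after the data were seen.

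Groups came from the labels. The members, the lists and the alternatives were chosen with earlier results of these data known. All 10 members are described, and from each list up to 4 genes with the smallest p at 500 µg/mL, others being marked where named. Some genes of the lists are counted but not reported here by name. Positions and exon lengths come from GENCODE M21, in which 39311 of the symbols matched. Tigar, Mymk, Mymx and Adgre1 were found under older symbols.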

Additional observations from a re-analysis of the deposited data

How the results depend on the processing

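Over the 10 enzymes and 7 comparisons, 800 alternative values were computed, of which 736 kept their direction and their side of the threshold, 9 newly passed it, 17 no longer passed it and 38 changed sign. The 5 enzymes called at 500 µg/mL and the 3 called at 100 µg/mL over vehicle were called under every alternative. Whether the replicate numbers pair the libraries is not settled. The correlation of the deviations of same-numbered libraries was at or below 0.1 for at least 1 pair in every comparison (-0.115, -0.0151 and 0.0235 for 20 µg/mL and vehicle). In the sample codes of the JGT libraries, the middle digit is the replicate number at all 3 doses. At 500 and 100 µg/mL each library correlated best with its own number (0.0730, 0.106 and 0.116), but no label states a pairing. With the replicate block, members called at 20 µg/mL over vehicle numbered 0, against 1 without it, and at 500 over 20 µg/mL 6, against 7. The other member counts were equal.

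Members called at 20 µg/mL over vehicle numbered 2 in DESeq2, 2 in a fit of the 2 groups alone, 0 with non-treated libraries as control and 0 without any 1 library. The fit of the 2 groups alone called 1 member at 100 over 20 µg/mL and 1 in vehicle over non-treated. Over all genes, it called 330, 1369, 191, 1312, 1982 and 1032, against 47 (20 µg/mL over vehicle), 623 (100 µg/mL over vehicle), 62 (100 over 20 µg/mL), 2853 (500 over 100 µg/mL), 3371 (500 over 20 µg/mL) and 189 (vehicle over non-treated). DESeq2 called 103 and no filter 73 of all genes at 20 µg/mL over vehicle, and DESeq2 called 325 in vehicle over non-treated. Non-treated libraries as control gave 450 at 20 and 1320 at 100 µg/mL. Leaving out 1 library gave 18 to 36, 315 to 409, 19 to 41, 1877 to 4984, 2532 to 5165 and 36 to 88 of all genes in the same order of comparisons, each fit holding fewer libraries. The upper ends at 500 µg/mL came without its replicate 2.

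All values that changed sign belong to genes not called in that comparison, and their cause was not tested. With non-treated libraries as control they were Pgls (0.044), Rpia (-0.0082), Rpe (-0.14) and Idh1 (-0.058) at 20 µg/mL and Rpe (-0.050) at 500 µg/mL. With library totals they were Pgls at 100 µg/mL over vehicle (-0.0060), Taldo1 at 100 over 20 µg/mL (-0.011) and Nnt at 500 over 100 µg/mL (0.016). Leaving out 1 library, the log2 fold change over vehicle ran at 20 µg/mL from -0.072 to 0.050 for Pgls, -0.017 to 0.082 for Rpe and -0.040 to 0.11 for Rpia. At 100 µg/mL it ran from -0.032 to 0.053 for Pgls and -0.059 to 0.024 for Tkt, and at 500 µg/mL from -0.025 to 0.15 for Pgls and -0.016 to 0.17 for Rpia. For 100 over 20 µg/mL it ran from -0.047 to 0.081 for Pgls and -0.014 to 0.025 for Taldo1. For 500 over 100 µg/mL it ran from -0.033 to 0.012 for Nnt and -0.029 to 0.14 for Pgls, and for 500 over 20 µg/mL from -0.015 to 0.18 for Pgls and -0.050 to 0.14 for Rpia. For vehicle over non-treated it ran from -0.11 to 0.055 for Rpia and -0.014 to 0.025 for Taldo1. Of 1040 recounts of the lists, 127 moved, either by over 1.5 times or between 0 and another count. The standard errors of Pgls (0.11) and Rpia (0.10) at 500 µg/mL over vehicle limit what could be resolved for them, and counts of Rpia were as low as 262 in a library.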
